A study of Mus musculus with 12 samples.

Results

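The citric acid cycle enzymes described here were the products of 9 genes taken by symbol: Cs, Idh3a, Idh3b, Idh3g, Ogdh, Dlst, Suclg1, Fh1 and Mdh2. They were 9 of the 55573 genes in the deposited table, and all 9 passed the filter on low counts that left 15117 genes for testing. RNA was sequenced from cultured adipocytes that had been grown out of the stromal vascular fraction, the preadipocyte-containing cells of digested fat, of subcutaneous depots from C57BL/6 mice. WT donors carried the normal PPARγ on both alleles. TA donors were homozygous for T166A, an exchange of threonine 166 for an alanine that cannot be phosphorylated, and TD donors for T166D, whose aspartate resembles phosphothreonine. There were 4 libraries for each of the 3 genotypes. Both mutations were global knock-ins made with CRISPR-Cas9, so every cell of the animal carried them, and a point mutation leaves no trace in a count per gene. The cells of all genotypes received 850 nM insulin, 1 nM triiodothyronine, 0.5 mM IBMX, dexamethasone and 125 nM indomethacin for 4 days, then insulin and triiodothyronine, and were harvested on day 8. The study's labels and methods differ on the dexamethasone dose, and neither says which libraries came from separate animals or cultures, so a p-value here measures the spread between libraries, which may be technical.

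The citric acid cycle runs in the mitochondrial matrix, where it oxidizes the acetyl group of acetyl-CoA to carbon dioxide and passes the electrons to the respiratory chain. Citrate synthase opens the cycle, isocitrate dehydrogenase and the 2-oxoglutarate dehydrogenase complex carry out its decarboxylations, and succinyl-CoA synthetase, fumarase and malate dehydrogenase belong to the steps that restore oxaloacetate. In white adipocytes the cycle also supplies citrate, which leaves the mitochondrion and yields the acetyl-CoA for fatty acid synthesis. PPARγ, the nuclear receptor mutated in these mice, is required for adipocyte differentiation.

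All 9 genes are protein coding and lie on 9 different chromosomes of GRCm38. Cs, citrate synthase, spans chr10:128337734-128362479. Idh3a, the catalytic subunit of NAD-dependent isocitrate dehydrogenase, spans chr9:54586334-54604661, and the genes for its other subunits, Idh3b and Idh3g, span chr2:130279309-130284547 and chrX:73778963-73786897. Ogdh, the first component of the 2-oxoglutarate dehydrogenase complex, spans chr11:6291633-6356642, and Dlst, its succinyltransferase core, spans chr12:85110833-85134845. Suclg1, the alpha subunit of succinyl-CoA synthetase, spans chr6:73248382-73276911. Fh1, fumarase, spans chr1:175600374-175625635, and Mdh2, mitochondrial malate dehydrogenase, spans chr5:135778480-135790398. Idh3b and Nop56, which encodes a small nucleolar ribonucleoprotein on the other strand, share 5 exonic bases. The mean count of Idh3b was 5795 per library and that of Nop56 was 761.

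All 9 genes were lower in TD than in WT, as given below, and a part of their promoters in this was not tested. The sequence just before their start sites was read, 250 bases upstream of the most upstream RefSeq start on GRCm38.p6, where an entry matched for 8 of the 9 genes. Idh3a had no match. The windows were searched on both strands for letters of motifs known from genes of mitochondrial proteins and of nuclear receptors, and the windows of Cs, Idh3g and Ogdh are shown as examples that held matches and ended before the annotated gene. Capitals mark every match to a searched motif.
Cs, chr10:128337477-128337726, plus strand: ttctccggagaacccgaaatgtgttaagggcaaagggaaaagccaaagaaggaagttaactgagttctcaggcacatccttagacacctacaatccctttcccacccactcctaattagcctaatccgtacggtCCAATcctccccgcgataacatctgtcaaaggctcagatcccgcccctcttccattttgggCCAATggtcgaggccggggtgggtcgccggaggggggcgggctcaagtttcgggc
Idh3g, chrX:73786898-73787147, minus strand: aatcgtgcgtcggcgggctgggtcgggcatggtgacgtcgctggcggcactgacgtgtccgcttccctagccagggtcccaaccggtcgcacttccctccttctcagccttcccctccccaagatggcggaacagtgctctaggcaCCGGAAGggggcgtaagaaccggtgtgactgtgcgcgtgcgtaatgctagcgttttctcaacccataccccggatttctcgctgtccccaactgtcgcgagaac
Ogdh, chr11:6291347-6291596, plus strand: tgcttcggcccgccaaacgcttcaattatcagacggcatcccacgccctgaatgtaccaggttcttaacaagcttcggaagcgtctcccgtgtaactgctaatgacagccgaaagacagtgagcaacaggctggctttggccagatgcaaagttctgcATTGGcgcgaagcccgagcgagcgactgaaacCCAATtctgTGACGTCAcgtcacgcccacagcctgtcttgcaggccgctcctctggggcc
The cAMP response element TGACGTCA was found before 2 of the 8 genes, Ogdh (51 bases before the start) and Mdh2 (127 bases), and in 1.55% of 32851 mouse promoter windows of this length. The ETS site CCGGAAG, the core bound by GABPA, was found before Idh3g alone, 104 bases from the start, and in 6.91% of all windows. CCAAT boxes preceded 4 of the 8 genes (Cs, Idh3b, Ogdh and Fh1) and 33.9% of all windows. The nuclear receptor half-site AGGTCA was found before Fh1, 188 bases from the start, and in 14.0% of windows. None of the 8 windows held the estrogen-related receptor element TCAAGGTCA, which contains the half-site (0.387% of windows), the inner part of the NRF1 site GCATGCGC (2.26%) or the half-site repeated after 1 base, as PPARγ binds it with its partner RXR (0.0335%). These are matches of letters, and binding was not measured here.

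Depth was 18823619 to 20324286 counts in WT, 16950175 to 18182526 in TA and 16553324 to 18357864 in TD. Adipocyte markers were abundant in every library, with a summed level of 17564 CPM, counts scaled to a common normalized library size, or more over 14 markers. TD replicates 3 and 4 stood apart by skeletal muscle markers, whose summed level was 325 and 186 CPM there, against 22.4 and 84.4 CPM in TD replicates 1 and 2 and 6.34 to 15.3 CPM in WT. Counts of the citric acid cycle enzymes are therefore also given below without these 2 libraries.

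In WT, the 9 enzymes took 0.320% to 0.359% of all counts in a library, and in TD 0.223% to 0.253%. The TA libraries lay between and across these ranges, at 0.270% to 0.341%. Per kilobase of exon, Cs had the highest level in WT, 172 ± 11.6 CPM per kb (SD, n = 4). Mdh2 followed at 116 ± 11.5 CPM per kb, Idh3b at 113 ± 5.80 and Idh3g at 81.0 ± 4.83. Ogdh was at 71.1 ± 8.96 CPM per kb, Idh3a at 60.7 ± 6.87 and Fh1 at 55.9 ± 4.95. Dlst (39.0 ± 3.94 CPM per kb) and Suclg1 (35.4 ± 2.38 CPM per kb) closed the order. The WT ranges of neighbours overlapped for Mdh2 and Idh3b, for Idh3g and Ogdh, for Ogdh and Idh3a, for Idh3a and Fh1, and for Dlst and Suclg1. Compared within each of the 12 libraries, Mdh2 was above Idh3b in 11, Ogdh above Idh3a in 10, Dlst above Suclg1 in 9 and Idh3a above Fh1 in 5. Within a library, on this scale, Cs was above Mdh2, Idh3b above Idh3g, Idh3g above Ogdh and Fh1 above Dlst in all 12 libraries. The order rests on the length used, the merged annotated exons, at 9559 bases for Dlst and 3392 for Fh1. In CPM, the WT mean of Dlst (373) was above that of Fh1 (190), and Ogdh (388) above Idh3g (219). Cs (992) was still above Mdh2 (412), and Idh3b (387) above Idh3g. In TD, Idh3a stood below Fh1, at 36.5 ± 3.64 against 38.8 ± 2.95 CPM per kb.

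TD was compared with WT to ask how the phosphomimetic receptor changes the cells. All 9 enzymes were lower in TD than in WT. Dlst fell by 28.3% and Idh3a fell by 39.8%, and the other 7 lay between them. For all 9 genes the 4 TD libraries lay below the 4 WT libraries. Over all genes tested, 14.2% were called lower in TD and 15.1% were called higher, and 16.4% were lower without overlap. The median log2 fold change of the 9 enzymes was -0.54, and that of all genes tested was 0.01. Of all genes called, 51.5% were higher in TD, and 64.6% when libraries were scaled by their totals alone. Under that scaling all 9 enzymes were still called lower, as were 10.3% of all genes tested.

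**Figure D1:**
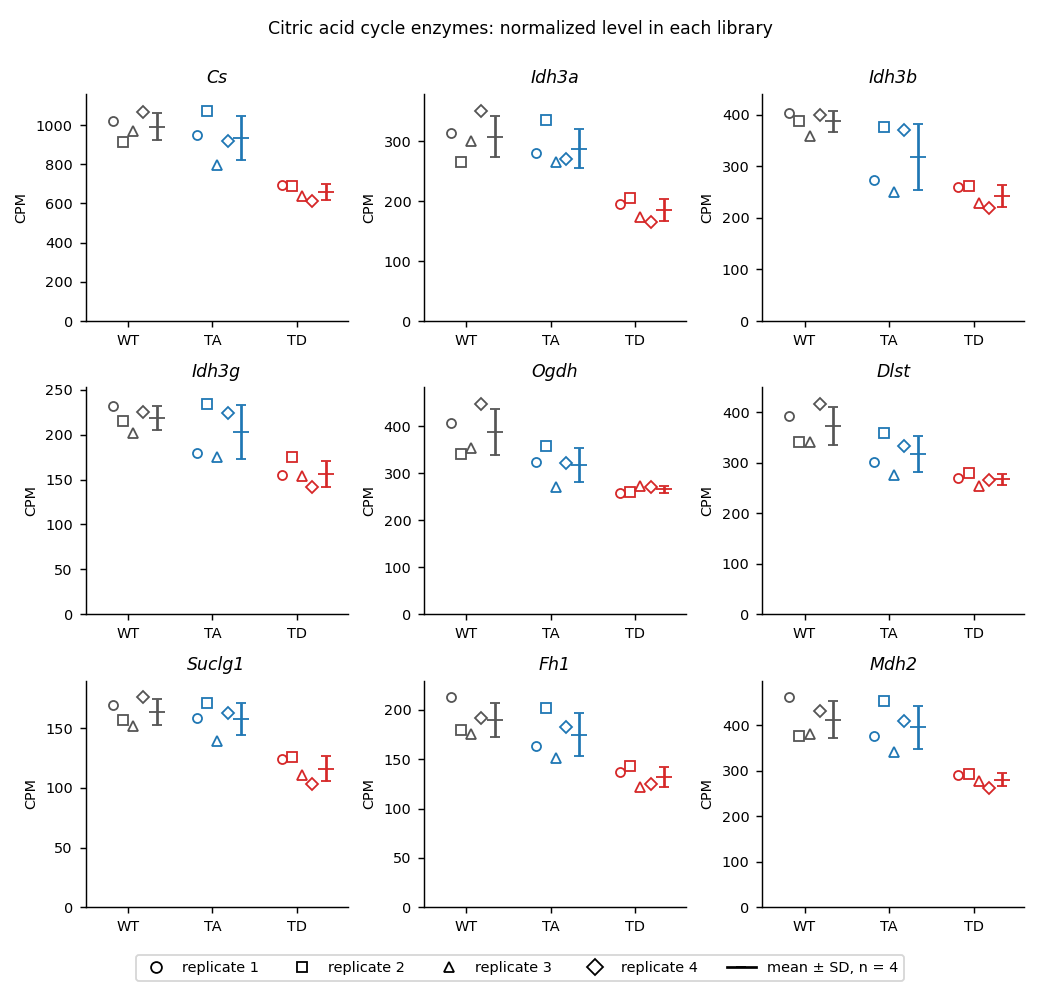
Normalized level (CPM, linear axis from 0) of each of the 9 citric acid cycle enzymes in the WT, TA and TD libraries; open symbols are the replicates and the bar beside them is the mean ± SD of 4 libraries. In every panel the 4 TD libraries sit below the 4 WT libraries, while the TA libraries overlap the WT libraries in every panel.

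Cs, the enzyme that joins acetyl-CoA to oxaloacetate, was measured at 1021, 912, 969 and 1068 CPM in WT replicates 1 to 4. In TD it was at 696, 688, 640 and 613 CPM. The lowest WT library was thus well above the highest TD library. The log2 fold change was -0.59 ± 0.09 (SE; adjusted p = 0.000301, edgeR's quasi-likelihood test with Benjamini-Hochberg adjustment, here and below).

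The 3 subunits of NAD-dependent isocitrate dehydrogenase were all lower. Idh3a, whose product holds the catalytic site, was at 314, 266, 301 and 350 CPM in WT and at 195, 206, 174 and 166 CPM in TD. The groups did not overlap, and this fall was the largest among the 9 enzymes (log2 fold change -0.73 ± 0.10, adjusted p = 0.000146). Idh3b, a subunit needed for assembly and activity, was at 402, 389, 359 and 399 CPM in WT and at 259, 262, 228 and 219 CPM in TD, again without overlap (log2 fold change -0.68 ± 0.12, adjusted p = 0.000596). Idh3g, the regulatory subunit, was at 232, 215, 202 and 226 CPM in WT and at 155, 175, 154 and 141 CPM in TD. The gap between its groups was narrower, and its log2 fold change was -0.48 ± 0.10 (adjusted p = 0.00178).

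The components of the 2-oxoglutarate dehydrogenase complex were also lower. Ogdh, which decarboxylates 2-oxoglutarate, was at 408, 341, 355 and 447 CPM in WT and at 259, 261, 273 and 272 CPM in TD (log2 fold change -0.54 ± 0.10, adjusted p = 0.000671). Dlst, which transfers the succinyl group to coenzyme A, was at 393, 341, 341 and 416 CPM in WT and at 269, 279, 254 and 265 CPM in TD (log2 fold change -0.48 ± 0.09, adjusted p = 0.00105). For both genes the TD libraries lay close together, with SDs of 7.40 CPM for Ogdh and 10.5 CPM for Dlst, against 48.9 and 37.7 CPM in WT.

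The later enzymes of the cycle were lower as well. Suclg1, shared by the ATP-forming and GTP-forming synthetases, was at 152 to 176 CPM in WT and 103 to 126 CPM in TD (log2 fold change -0.49 ± 0.08, adjusted p = 0.000534). Fh1, which hydrates fumarate to malate, was at 175 to 213 CPM in WT and 122 to 143 CPM in TD (log2 fold change -0.53 ± 0.09, adjusted p = 0.000711). Mdh2, which returns malate to oxaloacetate, was at 462, 377, 380 and 431 CPM in WT and at 290, 294, 278 and 262 CPM in TD (log2 fold change -0.55 ± 0.09, adjusted p = 0.000507). In none of these genes did a TD library reach the WT range. Without TD replicates 3 and 4, 8 of the 9 enzymes were called lower in TD, where 4.33% of all genes tested were called lower, and Idh3g had a log2 fold change of -0.40 (adjusted p = 0.0543).

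TA was compared with WT to ask how the receptor that cannot be phosphorylated at this site changes the cells. None of the 9 enzymes was called, although 3 had an unadjusted p under 0.05 by edgeR and DESeq2 called 1, Ogdh (-0.29, adjusted p = 0.0317, with 5.72% of all genes called lower). None was without overlap between the libraries. Over all genes tested, 4.41% were called lower in TA, 6.72% were called higher and 5.85% were lower without overlap. The median log2 fold change of the 9 enzymes was -0.11, against -0.01 for all genes tested. Of all genes called, 60.4% were higher in TA, and 41.9% when libraries were scaled by totals without mitochondrially encoded genes and the most counted gene. Under that scaling Ogdh and Dlst were called lower, as were 7.43% of all genes tested. Cs was at 951, 1071, 797 and 918 CPM in TA replicates 1 to 4, across the WT range (log2 fold change -0.09 ± 0.09, adjusted p = 0.613). Mdh2 was at 378, 454, 341 and 410 CPM (log2 fold change -0.06 ± 0.09, adjusted p = 0.748), and both genes had TA libraries above and below WT libraries.

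Ogdh, Dlst and Idh3b had the most negative values in TA. Ogdh was at 324, 358, 270 and 321 CPM in TA (log2 fold change -0.29 ± 0.10, adjusted p = 0.0654). Dlst was at 302, 358, 275 and 333 CPM (log2 fold change -0.23 ± 0.09, adjusted p = 0.109). Idh3b split into TA replicates 1 and 3 at 274 and 251 CPM and replicates 2 and 4 at 376 and 371 CPM (log2 fold change -0.28 ± 0.12, adjusted p = 0.134). Idh3g split the same way, at 180 and 175 CPM against 234 and 224 CPM (log2 fold change -0.11 ± 0.10, adjusted p = 0.560), while Idh3a, at 281, 335, 265 and 270 CPM, did not (log2 fold change -0.10 ± 0.10, adjusted p = 0.603). TA replicate 2 was the highest TA library for all 9 enzymes, and TA replicate 3 was the lowest for all 9. Without TA replicate 2, where 4.91% of all genes tested were called lower, Idh3b (-0.38), Ogdh (-0.35) and Dlst (-0.30) were called lower in TA than in WT, with adjusted p of 0.0437, 0.0259 and 0.0399. Without TA replicate 3 they were at -0.19, -0.21 and -0.17 and none was called, and the median of the 9 enzymes was -0.05. Without WT replicate 2, Ogdh alone was called (-0.34, adjusted p = 0.0369), where 3.87% of all genes tested were called lower.

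**Figure D2:**
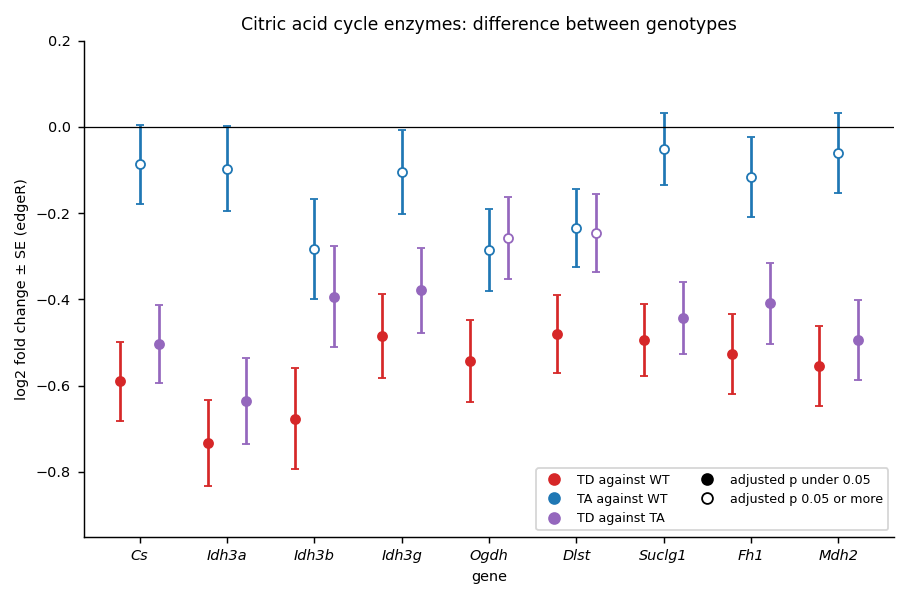
Log2 fold change ± SE (vertical axis) from edgeR for each of the 9 enzymes (horizontal axis) for TD against WT (red), TA against WT (blue) and TD against TA (purple); filled symbols have an adjusted p under 0.05. All 9 symbols are filled for TD against WT, none for TA against WT, and all but Ogdh and Dlst for TD against TA.

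The mutants were also compared with each other. In TD against TA, all 9 enzymes had a negative log2 fold change, 7 of them were called lower in TD and none was called higher. Of all genes tested, 9.37% were called lower and 7.33% higher. These shares moved with single libraries, to 5.46% lower and 3.75% higher without TA replicate 2, 11.4% lower and 11.5% higher without TA replicate 3, 6.23% lower and 4.11% higher without TD replicate 3, and 5.79% lower and 3.53% higher without TD replicate 4. Cs (-0.50 ± 0.09, adjusted p = 0.00160), Idh3a (-0.64 ± 0.10, adjusted p = 0.000509), Suclg1 (-0.44 ± 0.08, adjusted p = 0.00211), Fh1 (-0.41 ± 0.09, adjusted p = 0.00754) and Mdh2 (-0.49 ± 0.09, adjusted p = 0.00209) were lower without overlap between libraries, a pattern that 10.6% of all genes tested showed. Idh3b (-0.39 ± 0.12, adjusted p = 0.0299) and Idh3g (-0.38 ± 0.10, adjusted p = 0.0150) were lower with overlap. Ogdh (-0.26 ± 0.10, adjusted p = 0.0739) and Dlst (-0.25 ± 0.09, adjusted p = 0.0706) did not pass the threshold. The median log2 fold change was -0.41 for the 9 enzymes and 0.02 for all genes tested. Of all genes called, 43.9% were higher in TD, and 64.7% with libraries scaled by totals alone, under which 6 enzymes and 6.5% of all genes tested were called lower. The count of enzymes also depended on single libraries. Leaving out TA replicate 2, TA replicate 4 (7.8% of all genes tested called lower) or TD replicate 4 left 5 enzymes called, and leaving out TA replicate 3 gave 9. Without TD replicates 3 and 4, Idh3a alone was called (-0.52, adjusted p = 0.0271), where 2.86% of all genes tested were called lower. The 3 comparisons share libraries and are not independent of each other.

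The ratio of the counts of a pair of genes within a library does not depend on how libraries are scaled, and was compared for 9 pairs in 3 comparisons by a two-sided, exact permutation of the 8 libraries involved. The smallest p this test can give is 0.0286. After adjustment over the 27 tests none passed 0.05, and the smallest adjusted p was 0.0771, so the ratios are given as values. The log2 ratio of Idh3b to Idh3g was 0.82 ± 0.02 in WT (SD, n = 4), 0.63 ± 0.09 in TA and 0.63 ± 0.08 in TD. Every WT library was above every TA and TD library (exact permutation p = 0.0286 for each mutant against WT, adjusted p = 0.0771). The ratio of Idh3a to Idh3g was 0.49 ± 0.15 in WT, 0.51 ± 0.17 in TA and 0.24 ± 0.06 in TD, with overlap (TD against WT, exact permutation p = 0.0571, adjusted p = 0.110). The mean of Ogdh to Dlst lay within 0.06 of even in each genotype, at 0.06 ± 0.04 in WT, 0.01 ± 0.07 in TA and -0.0044 ± 0.09 in TD. Single libraries ran from -0.10 (TD replicate 2) to 0.11 (TD replicate 3).

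Ratios were also taken to an isoform or partner outside the 9 genes. Suclg1 pairs with Sucla2 in the ATP-forming synthetase, and their log2 ratio was -0.22 ± 0.10 in WT, -0.61 ± 0.11 in TA and -0.23 ± 0.06 in TD. All TA libraries were below all WT and TD libraries (exact permutation p = 0.0286 for both, adjusted p = 0.0771). Suclg1 to Suclg2, its partner in the GTP-forming synthetase, was 0.65 ± 0.06 in WT, 0.71 ± 0.12 in TA and 0.43 ± 0.14 in TD. Mdh2 to its cytosolic counterpart Mdh1 was -1.20 ± 0.05 in WT, -1.47 ± 0.04 in TA and -1.26 ± 0.04 in TD, and again the TA libraries lay apart (exact permutation p = 0.0286, adjusted p = 0.0771). Idh3a to Idh2, the NADP-dependent mitochondrial enzyme that acts on the same substrate, was 1.21 ± 0.08 in WT, 1.45 ± 0.21 in TA and 1.01 ± 0.07 in TD, with the TD libraries below all others.

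**Figure D3:**
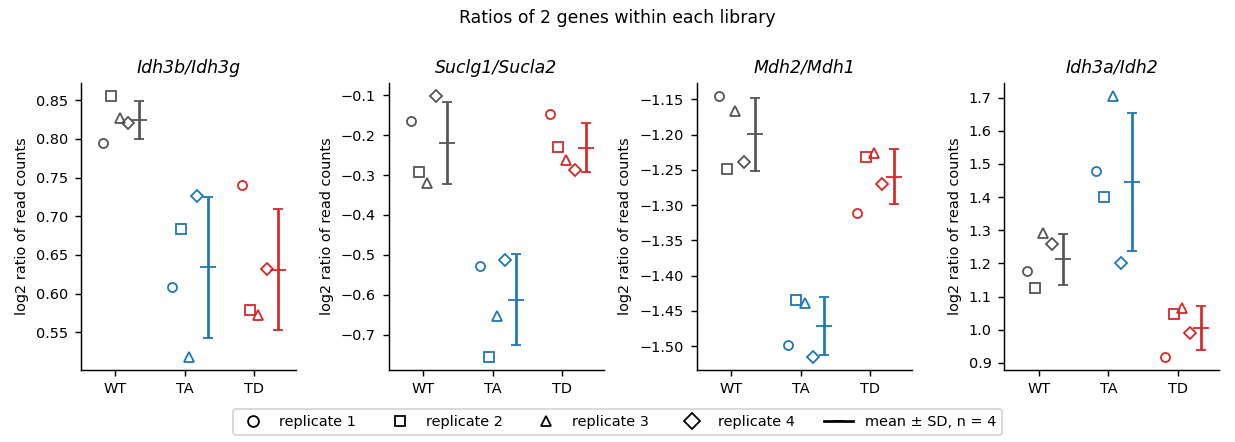
Log2 ratio of the read counts of 2 genes within each library (vertical axes, not starting at 0) for Idh3b/Idh3g, Suclg1/Sucla2, Mdh2/Mdh1 and Idh3a/Idh2 in WT, TA and TD; open symbols are replicates and bars are the mean ± SD of 4 libraries. Idh3b/Idh3g is highest in the WT libraries, Suclg1/Sucla2 and Mdh2/Mdh1 are lowest in the TA libraries, and Idh3a/Idh2 is lowest in the TD libraries.

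A further 7 subunits of the cycle were read from the same fit. In TD against WT all 7 were called lower, where 14.2% of all genes tested were called lower. The subunits of succinate dehydrogenase, which is also complex II of the respiratory chain, were led by Sdhb, with a log2 fold change of -0.77 (adjusted p = 0.000198). Sdha fell from 1039 ± 87.5 to 635 ± 43.3 CPM (-0.71, adjusted p = 0.000214), with Sdhc at -0.59 and Sdhd at -0.52. Dld, the dehydrogenase that Ogdh and Dlst share with the pyruvate dehydrogenase complex, was at -0.54, Sucla2 at -0.48 and Suclg2 at -0.28. In TA against WT 1 of the 7 was called, Sucla2, which was higher (190 ± 1.35 CPM in WT and 242 ± 31.5 CPM in TA, log2 fold change 0.35, adjusted p = 0.012). There 6.72% of all genes tested were called higher. In TD against TA 6 of the 7 were called lower, all but Suclg2 (-0.16, adjusted p = 0.21), where 9.37% of all genes tested were called lower. Of the 16 genes of the cycle described here, all 16 were thus lower in TD than in WT.

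**Figure D4:**
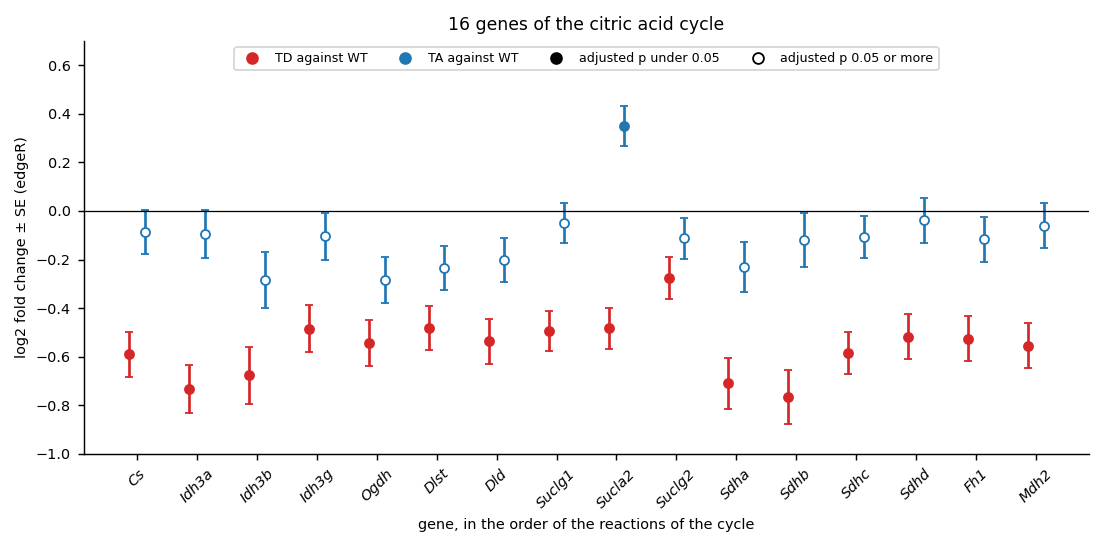
Log2 fold change ± SE (vertical axis) from edgeR for 16 genes of the citric acid cycle in the order of its reactions (horizontal axis), in TD and in TA against WT; filled symbols have an adjusted p under 0.05. All 16 TD symbols are filled and below 0, from -0.28 for Suclg2 to -0.77 for Sdhb, and among the TA symbols Sucla2 alone is filled, at 0.35.

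Of 13 genes for the pyruvate carrier, the pyruvate dehydrogenase complex and its regulators, 10 were lower in TD than in WT, among them Dlat (-0.64), Pdk2 and Pdk4 (both -0.58), Pdhb (-0.57), Mpc2 (-0.51) and Pdha1 (-0.43). Pdp1, a phosphatase that activates the complex, was higher (0.63, adjusted p = 0.0019). In TA against WT 2 of the 13 were called, both higher, where 6.72% of all genes tested were called higher, and the median log2 fold change of the 13 was 0.02. Mpc2, a subunit of the mitochondrial pyruvate carrier, rose from 157 ± 17.5 to 235 ± 33.2 CPM (0.58, adjusted p = 0.0013) and Pdhb, the beta subunit of pyruvate dehydrogenase, from 436 ± 7.24 to 527 ± 49.9 CPM (0.27, adjusted p = 0.045). In TD against TA 8 of the 13 were called lower, with Mpc2 at -1.09 and Pdhb at -0.84, where 9.37% of all genes tested were called lower. 

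The NADP-dependent and cytosolic counterparts differed among themselves. In TD against WT 4 of 5 were lower: Idh2 (-0.52), Mdh1 (-0.49), the cytosolic aconitase Aco1 (-0.40) and Idh1 (-0.22). Me1, the cytosolic malic enzyme that forms NADPH from malate, had a log2 fold change of 0.03 (adjusted p = 0.85) in TD. In TA it rose from 1092 ± 93.6 to 1952 ± 297 CPM (0.84, adjusted p = 7.3e-05), the sole gene of this list called in TA. Of 12 tested genes for filling and draining the cycle (of 13 listed), 9 were lower in TD than in WT, with the largest fall for Gpt2, mitochondrial alanine transaminase (-0.55). In TA, Slc25a1, the carrier that exports citrate, was higher (489 ± 25.6 CPM in WT and 871 ± 61.2 CPM in TA, 0.83, adjusted p = 3.6e-06), and Pck2 (-0.57) and Got1 (-0.32) were lower. In TD against TA, 3 of the 5 counterparts and 6 of the 12 filling and draining genes were called lower, with Slc25a1 at -1.10.

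Of 7 genes for lipoylation and succinate dehydrogenase assembly, 3 were lower in TD than in WT, with Sdhaf3, an assembly factor of succinate dehydrogenase, at -0.52. In TA against WT edgeR called none, while 1 had an unadjusted p under 0.05, and 1 was called lower in TD against TA (Sdhaf2, -0.27). Of 9 mitochondrial housekeeping genes outside the cycle, 8 were lower in TD than in WT, with a median log2 fold change of -0.40 and the largest fall in the chaperone Hspa9 (-0.67). In TA against WT 1 was called lower (Hspa9, -0.35), and in TD against TA 5 were called lower, with Timm23, a channel subunit of the inner membrane import machinery, at -0.55.

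The profile of the 9 enzymes over the 12 libraries, each relative to its own mean, was most closely followed by Fh1 among them, at a root-mean-square difference of 0.0458 on the log2 scale from the mean profile, and least by Idh3a, at 0.121. Among 9024 other genes whose mean reached 10 CPM, the nearest were Gpat4, a glycerol-3-phosphate acyltransferase, at 0.0381, Foxred1, an assembly factor of complex I, at 0.0449, Acad11, an acyl-CoA dehydrogenase, at 0.0457, Uqcrc2, a core subunit of complex III, at 0.0501 and Hibadh, an enzyme of valine breakdown, at 0.0502. Gpat4 had log2 fold changes of -0.55 (TD against WT), -0.12 (TA against WT) and -0.43 (TD against TA). Their likeness to those of the enzymes follows from its choice by profile in the same libraries. Each of the 9 enzymes is itself part of the mean profile.

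Markers of cell types moved in the same libraries. The summed level of the 9 enzymes was 3178 to 3704 CPM in WT, 2666 to 3559 CPM in TA and 2166 to 2433 CPM in TD. The summed level of 14 adipocyte markers was 25255 to 28635 CPM in WT, 22957 to 30504 CPM in TA and 17564 to 19974 CPM in TD. In TD against WT 12 of the 14 were called lower, Pparg itself at -0.58 and Cidec at -0.97, where 14.2% of all genes tested were called lower. All 14 had a negative log2 fold change, from -0.97 to -0.27, and an unadjusted p under 0.05 by edgeR. As a percentage of the summed adipocyte markers, the enzymes were at 12.2% to 13.2% in WT, 11.1% to 11.7% in TA and 11.9% to 12.3% in TD. TA replicate 2, the highest TA library for every enzyme, also had the highest adipocyte sum of TA, and TA replicate 3 the lowest of both. The summed level of 14 fibroblast and preadipocyte markers was 14829 to 19854 CPM in WT, 16579 to 29609 CPM in TA and 26100 to 38912 CPM in TD, and 11 of 13 tested were higher in TD than in WT. In these bulk libraries, fewer adipocytes and less enzyme RNA in each adipocyte cannot be told apart.

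**Figure D5:**
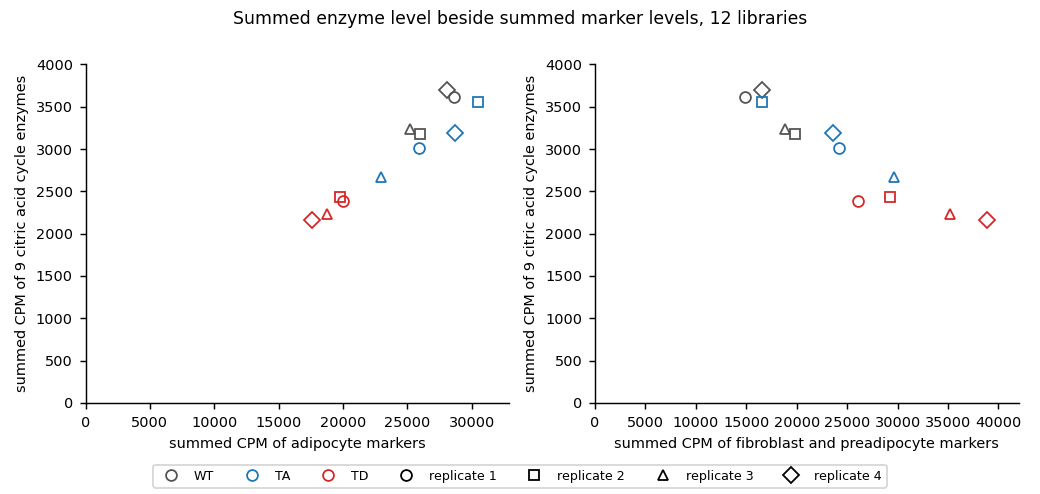
Summed level of the 9 citric acid cycle enzymes (vertical axes, CPM) beside the summed level of 14 adipocyte markers (left, CPM) and of 14 fibroblast and preadipocyte markers (right, CPM), with 1 symbol per library and linear axes from 0. The 4 TD libraries have the lowest sums of enzymes and of adipocyte markers, and TA replicate 3 is the TA library nearest to them.

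All 13 tested muscle markers of 14 were higher in TD than in WT and 7 were higher in TA, where the summed level was 23.7 to 87.0 CPM. Myod1 and Myog, regulators that define the muscle lineage, had no count in any WT library. Myod1 also had none in TA replicates 1, 3 and 4 and TD replicates 1 and 2. Other muscle markers had counts in WT, where the sum was 6.34 to 15.3 CPM. Endothelial markers were higher in TD than in WT for 7 of 8, with sums of 28.3 to 60.5 CPM in WT, 52.5 to 97.7 CPM in TA and 112 to 142 CPM in TD. Of 10 macrophage markers 1 was called higher in TD than in WT, where 15.1% of all genes tested were called higher. Their sums were 287 to 849 CPM in WT, 143 to 619 CPM in TA and 658 to 910 CPM in TD. Mitochondrially encoded genes took 4.92% to 5.88% of counts in WT, 2.74% to 4.50% in TA and 2.86% to 3.57% in TD. The part of these markers in the levels of the enzymes was not tested.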

How the data were processed

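Adipocytes of 3 genotypes (WT, TA, TD), 4 libraries each by the sample labels, were sequenced on a NovaSeq instrument. The authors deposited raw read counts per gene, not normalized. The submitters' processing notes list bcl2fastq 2.17.1.14, cutadapt 1.9.1, HISAT2 2.0.1, HTSeq 0.6.1 and GRCm38. The strand setting is not given in the sources used here. Symbols came with the table, and positions and exon lengths from GENCODE M21, which held 55480 of the 55573 identifiers (99.8%). The per-library counts equalled those in the table for all 12 libraries.

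Counts were tested with edgeR 4.0.16 (R 4.3.3) after filterByExpr (minimum count 10, minimum total 15) and TMM normalization (factors 0.957 to 1.04). All libraries entered 1 quasi-likelihood fit, with a biological coefficient of variation of 12.9%, with Benjamini-Hochberg adjustment over 15117 genes and a threshold of 0.05 for a call. CPM (edgeR's cpm function) are counts scaled to a common normalized library size. Profiles used a prior count of 2. Log2 ratios of counts were compared by exact permutation (scipy 1.17.1). The alternatives tried were DESeq2 1.42.0, other scalings and filters, fits of only the libraries compared, a replicate block and leaving out libraries. The fit was tested on simulated counts for TD against WT. It called 44.9% of 98 genes changed by 0.5 on the log2 scale and 75.8% of 99 changed by 1. Of its calls, 7.03% were false, at the threshold of 0.05. The 18 replicate pairs differed by more than sampling noise (chi-square per degree of freedom 4.88 to 37.5).

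The 9 enzymes and all lists were chosen with earlier results of these data known. The text names the 9 enzymes, genes of the cycle, pyruvate entry and counterpart lists, the largest rise or fall called in each other list, Pparg, and the 5 genes nearest in profile. Myod1, Myog and Nop56 were named after their values were seen. Levels between genes were compared per kilobase of exon, with all annotated exons of a gene merged. Each gene's 250 bases before the most upstream RefSeq start were searched for motifs. Some genes of the lists are not reported here.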

Additional observations from a re-analysis of the deposited data

How the results depend on the processing

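All 9 enzymes were called lower in TD against WT under every alternative that keeps at least 3 libraries of each genotype. Under these alternatives 6.98% to 15.8% of all genes tested were called lower. Without TD replicates 3 and 4, 8 enzymes were called lower (4.33% of all genes tested). That alternative was chosen after seeing the data, as was the scaling to library totals without mitochondrially encoded genes and the most counted gene. In TA against WT, where none was called, 1 was called by DESeq2 (5.72% of all genes tested called lower) and 1 with library totals alone (5%). Totals without mitochondrially encoded genes and the most counted gene gave 2 (7.43%), and no filter on low counts gave 2 (3.41%). Leaving out each library in turn gave 0 to 3 (2.99% to 4.91%). In TD against TA, where 7 were called, the counts without 1 library ran from 5 to 9, where 5.46% to 11.4% of all genes tested were called lower. Without TD replicates 3 and 4 the count was 1 (2.86% of all genes tested called lower), with TD left at a pair of libraries. Over the fits that each left out 1 library, the log2 fold change in TA against WT ran from -0.095 to 0.0045 for Suclg1 and from -0.14 to 0.0049 for Mdh2, and was above 0 for both without TA replicate 3. The replicate numbers did not pair the libraries: correlations of same-numbered libraries ran from -0.24 to 0.20, and 2 of the 12 libraries correlated best with their own number. With a replicate block the called enzymes numbered 9 (TD against WT), 0 (TA against WT) and 7 (TD against TA). The shares of all genes tested called lower with the block were 13.5%, 3.96% and 9.06%. The ratio tests without 1 library or with a block could not reach 0.05 by design and say nothing about stability. The log2 ratio difference ran from -0.045 to 0.027 for Suclg1/Sucla2 in TD against WT and from -0.041 to 0.099 for Idh3a/Idh3g in TA against WT when 1 library was left out. Of all genes called, the higher ones made up 51.5% (TD against WT), 60.4% (TA against WT) and 43.9% (TD against TA). With library totals alone the shares were 64.6%, 56.2% and 64.7%, and the median of all genes in TD against TA moved to 0.10. With the added scaling they were 51.5%, 41.9% and 61.8%, and the cause was not tested. Over all genes, calls without TD replicates 3 and 4 fell from 4418 to 1516 in TD against WT and from 2524 to 634 in TD against TA. With 4 libraries a genotype, a p that misses the threshold does not show that levels were alike.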
